A study of Mus musculus with 8 samples.

Results

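Sox4, Sox11 and Sox12 form the C group of the Sox family, and the peaks called at these genes and within 50 kb of them were followed in mouse embryonic stem cells during differentiation. The 3 genes were taken by name from 21887 protein-coding genes of the RefSeq table for GRCm38.p6, whose coordinates are those of mm10, and all 3 were found. Chromatin immunoprecipitation followed by sequencing (ChIP-seq) had been used to map acetylated histone H3 (H3ac) on days 2, 4 and 6 and the histone deacetylase HDAC1 on day 2. All cells were embryonic stem cells of the 129/Ola strain, pluripotent cells of the early embryo, set to differentiate on gelatin in serum-free N2B27 medium, which favours neural differentiation. H3ac was precipitated with an antibody against acetylated histone H3, and HDAC1 through its FLAG tag. Neither the promoter that drives the tagged HDAC1 nor the number of clones is given in the labels. For every antibody and time point there was 1 precipitated library beside 1 input library and no replicate, so no difference below could be tested and none has an error. In a bulk chromatin preparation, fewer cells with a mark and less of the mark per cell cannot be told apart.

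SoxC proteins are transcription factors that bind DNA through an HMG box near the amino end and activate genes through a domain at the carboxyl end. In the developing nervous system, Sox4 and Sox11 are known for driving neuronal differentiation, with overlapping roles, and Sox12 is the weakest activator of the group. All 3 are single-exon genes, so a peak inside the annotated gene lies within the transcribed exon. Acetylation of histone H3 marks active promoters and enhancers, and HDAC1 removes acetyl groups from histones.

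Sox4 (gene ID 20677) lies on the minus strand of chromosome 13 from 28948919 to 28953699, Sox11 (20666) on the minus strand of chromosome 12 from 27334268 to 27342718, and Sox12 (20667) on the minus strand of chromosome 2 from 152393611 to 152398046. Their annotated lengths were 4781, 8451 and 4436 bp. The 250 bases upstream of each start are shown because the edges of the H3ac peaks fell on or beside them and set the genes apart. The sequences are RefSeq's for GRCm38.p6, 5′ to 3′ on the minus strand, at chr13:28953700-28953949, chr12:27342719-27342968 and chr2:152398047-152398296. Capitals mark the CCAAT box (CCAAT, or ATTGG on the other strand) and the octamer (ATGCAAAT, or ATTTGCAT on the other strand).
Sox4: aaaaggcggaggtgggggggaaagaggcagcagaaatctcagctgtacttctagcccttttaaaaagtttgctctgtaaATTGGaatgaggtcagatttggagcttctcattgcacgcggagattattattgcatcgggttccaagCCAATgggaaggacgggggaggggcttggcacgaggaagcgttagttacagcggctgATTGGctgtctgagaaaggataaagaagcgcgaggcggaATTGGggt
Sox11: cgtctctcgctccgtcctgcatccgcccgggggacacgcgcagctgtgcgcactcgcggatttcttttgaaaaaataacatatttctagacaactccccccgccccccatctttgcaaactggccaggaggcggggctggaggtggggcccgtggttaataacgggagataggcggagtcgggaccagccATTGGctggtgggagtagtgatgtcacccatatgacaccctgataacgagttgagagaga
Sox12: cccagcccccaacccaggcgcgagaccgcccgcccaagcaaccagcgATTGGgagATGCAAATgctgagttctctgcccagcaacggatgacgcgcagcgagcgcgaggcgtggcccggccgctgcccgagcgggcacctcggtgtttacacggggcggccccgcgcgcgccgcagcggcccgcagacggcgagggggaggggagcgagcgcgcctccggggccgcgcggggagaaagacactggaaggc

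The CCAAT box, the site of the factor NF-Y, was found 4 times before Sox4, 1 time before Sox11 and 1 time before Sox12. Of 21238 such 250-base stretches at protein-coding genes, 35.4% held it at least 1 time on either strand. This share and those below take no account of the number of copies. The Sox4 copies ended 4, 43, 100 and 167 bases before the start, and the Sox11 copy 56 bases before it. An octamer, the site read by POU factors such as Oct4, was found in the Sox12 stretch alone, next to its CCAAT box, and 1.58% of all stretches held one. The GC box (GGGCGG, or CCGCCC) was found 2 times before Sox11 and 3 times before Sox12, where a pair of copies overlapped, and not before Sox4 (42.6% of all stretches). The site of the HMG box (AACAAAG, or CTTTGTT; 4.43%), the E-box CACGTG (6.63%) and the TATA box (TATAAA, or TTTATA; 11.6%) were found in none of the 3. The Sox12 stretch was the richest in GC, with a GC share of 74.4% and 35 CpG dinucleotides, against 58.0% and 17 for Sox11 and 50.8% and 11 for Sox4. The medians over all stretches were 55.6% and 10. These matches describe letters only, and the motifs were chosen with the sequences in view.

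The H3ac lists of days 2, 4 and 6 held 17368, 12945 and 5553 peaks, and the HDAC1 list held 5286. Median widths were 591, 792, 1898 and 311 bp, so the typical day 6 peak was wider than the typical H3ac peak of the earlier days. The lists give no read counts, and the depth of the libraries is unknown here. As a check of the cells, pluripotency genes with an H3ac peak in the gene or within 1 kb numbered 6, 1 and 0 of 6 on days 2, 4 and 6. Of 6 neural progenitor genes, 2, 6 and 4 had one, and of 4 neuron genes 1 had one on each day. None of 6 mesendoderm genes had one on any day, while trophoblast genes gave 2, 0 and 0 of 4 and extraembryonic endoderm genes 1, 1 and 0 of 4. Over all protein-coding genes the shares were 47.9%, 44.0% and 25.5%, so the counts of the neuron genes, and of the neural progenitor genes on day 2, were not above the background of all genes. The part of any mixture of cell types in the results below was not tested.

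All 3 SoxC genes had an H3ac peak in the gene or within 1 kb on each of days 2, 4 and 6. Beside the shares of 47.9%, 44.0% and 25.5% over all protein-coding genes, 21.3% had such a peak on each of these days. The 3 genes did not share one pattern. Sox4 and Sox11 held peaks inside the gene on every day, the widest of them wider on each later day, whereas Sox12 held peaks inside the gene on days 2 and 4 and only upstream of its start on day 6. A peak overlapped the gene itself in 45.3%, 41.7% and 24.6% of protein-coding genes on days 2, 4 and 6, and on every day in 19.6%. Counting everything within 50 kb, where 68.3%, 65.6% and 47.4% of protein-coding genes had a peak on days 2, 4 and 6, the numbers were 5, 3 and 1 for Sox4, 4, 3 and 1 for Sox11 and 10, 8 and 1 for Sox12. The map of peaks along the genes shows these positions.

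**Figure D1:**
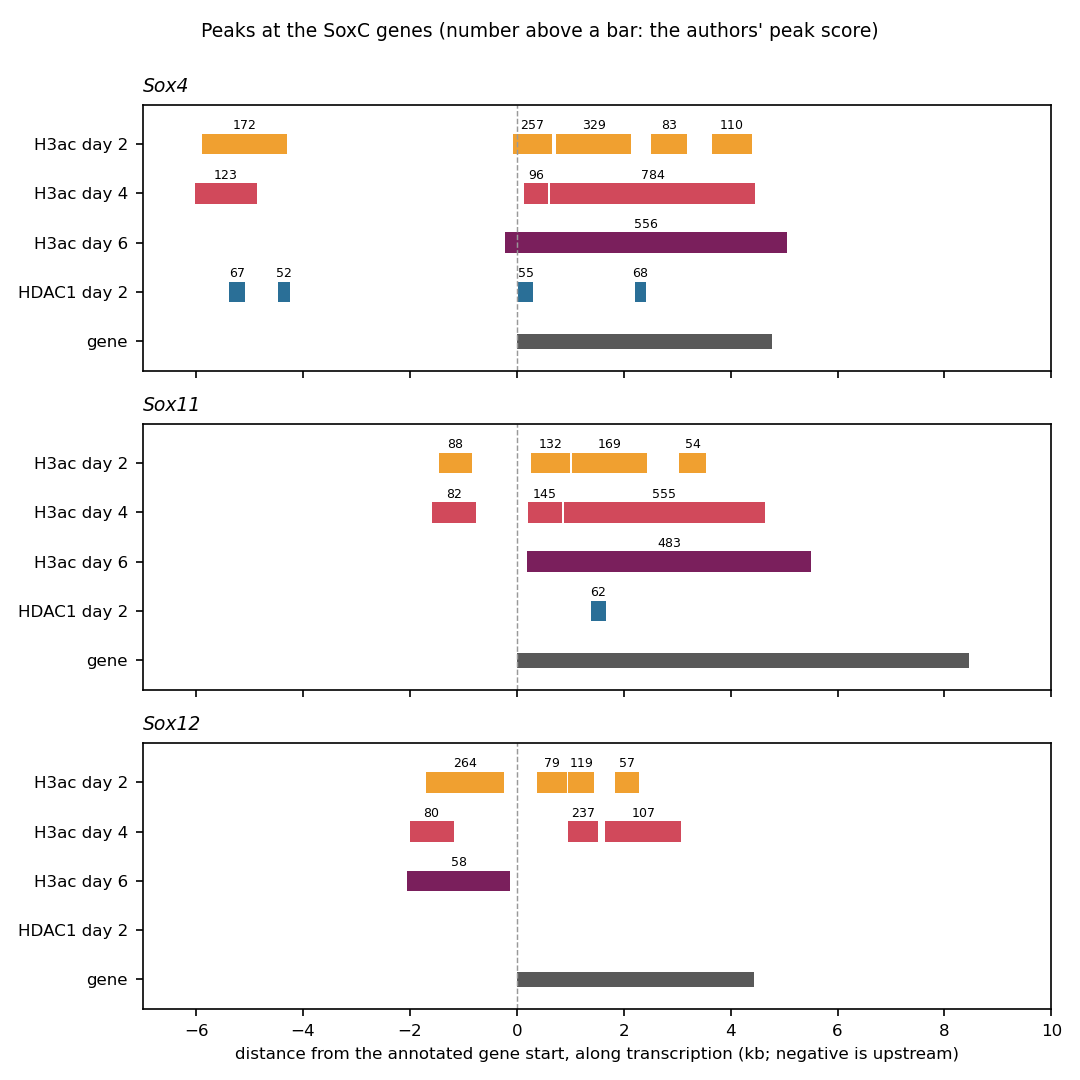
Peaks of the 4 lists (rows) along each SoxC gene, by distance from the annotated gene start in kb, with negative distances upstream; bars are peaks to scale, the number above each is the authors' score and the dark bar is the gene. Day 6 has a single bar of 5279 bp at Sox4 and of 5318 bp at Sox11 over the gene, and at Sox12 a single bar of 1926 bp that lies upstream of the start.

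Sox4, a factor of neural and lymphoid progenitors, had 4 H3ac peaks across its gene on day 2. From the start downstream they scored 256.90 (733 bp wide), 329.40 (1409 bp), 83.28 (673 bp) and 109.80 (742 bp), and the gaps between them ran from 75 to 468 bp. The score is the authors' own and ranks peaks within a list only. On day 4 a peak of 3843 bp and score 783.66, rank 72 of 12945, ran from 623 to 4465 bp downstream of the start, beside a small one of 460 bp (score 95.60). On day 6 a single peak of 5279 bp (score 555.58, rank 208 of 5553) ran from 219 bp upstream of the start to 5059 bp downstream, past the end of the gene. The day 4 peak was wider than 99.9% and the day 6 peak wider than 98.7% of the peaks of their own lists, so both were wide for their day.

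The day 6 peak lay over all 4 of the day 2 peaks in the gene. The wide day 4 peak overlapped all 4 but reached only the edge of the first. That day 2 peak ended 660 bp downstream of the start, and the wide day 4 peak began at 623 bp. Peaks that overlapped 4 or more day 2 peaks, by at least 1 bp each, were rare. They numbered 2 of 12944 (0.0155%) on day 4 and 41 of 5552 (0.738%) on day 6. On days 2, 4 and 6 peaks covered 72.9%, 90.0% and 100% of the Sox4 gene. Of the 3485 bp covered inside the gene on day 2, 95.3% were also covered on day 4 and 100% on day 6. Among 9923 protein-coding genes with any day 2 cover, the median kept was 66.1% on day 4 and 0% on day 6. Of these genes 73.9% kept less than Sox4 on day 4, and 67.8% kept less than all of their cover on day 6, so full retention was common. When each list was cut to its 5286 best-scoring peaks, the covered share on day 2 was 43.3%, and on days 4 and 6 it was 80.4% and 100%.

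Sox11, which acts in committed neural precursors and young neurons, showed a like succession of wider peaks, displaced to the 5′ part of a longer gene. On day 2 its 3 peaks inside the gene, from the start downstream, scored 131.98 (742 bp), 168.76 (1390 bp) and 54.00 (504 bp), the last near the lowest score in the list of 50. On day 4 there was a peak of 3762 bp (score 554.81, rank 242) from 881 to 4642 bp downstream, with a neighbour of 629 bp (score 144.92) on its 5′ side. On day 6 a single peak of 5318 bp (score 482.66, rank 309) ran from 196 to 5513 bp downstream. The wide peaks exceeded 99.8% of day 4 and 98.8% of day 6 peaks in width.

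The day 6 peak of Sox11 lay over its 3 day 2 peaks inside the gene. The wide day 4 peak overlapped all 3 but covered only part of the first. That day 2 peak ran from 263 to 1004 bp downstream of the start, and the wide day 4 peak began at 881 bp. Peaks that overlapped 3 or more day 2 peaks, by at least 1 bp each, made up 0.286% of the day 4 list and 4.23% of the day 6 list. The covered share of the Sox11 gene was 31.2%, 52.0% and 62.9% on the successive days, and beyond 5513 bp from the start the gene carried no peak in any list. Of the 2636 bp covered on day 2, 98.5% were also covered on day 4 and 100% on day 6, and 77.6% and 67.8% of genes with day 2 cover kept less. In lists cut to equal length the covered shares were 25.2%, 52.0% and 62.9%. The order of the days at Sox4 and Sox11 was thus the same with lists of equal length, but day 6 peaks are wide in general, and the part of peak calling in the widening was not tested.

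Sox12, the remaining SoxC gene, had another pattern. On day 2 it had 3 peaks inside the gene, of score 79.17, 119.31 and 57.02 from the start downstream, none over 574 bp wide. Its strongest day 2 peak lay upstream, from 1694 to 233 bp before the start, with a score of 263.72 and a width of 1462 bp. On day 4 the order was turned: the stronger peaks lay inside the gene, with scores of 236.53 (553 bp) and 107.40 (1418 bp), and the upstream peak, 1184 to 2004 bp before the start, scored 79.94. On day 6 no peak overlapped the gene, and the upstream peak, from 2046 to 121 bp before the start, scored 58.05, rank 5083 of 5553. That peak's width of 1926 bp exceeded 51.5% of its list, close to the median.

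For the Sox12 gene the covered shares were 34.4%, 44.4% and 0%. With all peaks counted, the upstream stretch thus carried a peak on all 3 days and the gene itself on the first 2 days mapped. Of the 1527 bp covered inside the gene on day 2, 62.4% were covered on day 4, near the median of 66.1% over all genes, and none on day 6, which is also the median over all genes. In lists cut to equal length, Sox12 had no cover inside the gene on day 2, where its best peak inside the gene ranked 5367, and 12.5% on day 4. At or above the median score of the list, Sox12 had no day 6 peak within 1 kb. The day 4 upstream peak, rank 7947 of 12945, was absent under both of these filters, so the upstream stretch then had no day 4 peak.

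**Figure D2:**
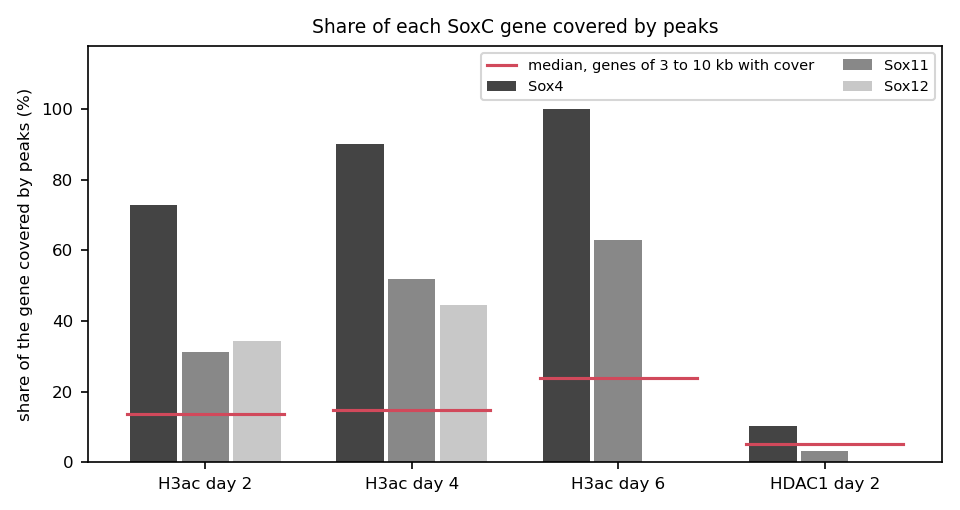
Share of the annotated gene covered by peaks (vertical axis, percent) in each list (horizontal axis), with 1 bar for each SoxC gene and a red line at the median of genes 3 to 10 kb long that have any cover in that list. On H3ac days 2, 4 and 6 the bars are at 72.9, 90.0 and 100% for Sox4, 31.2, 52.0 and 62.9% for Sox11, and 34.4, 44.4 and 0% for Sox12.

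For scale, the 3 genes were set beside the 4527 protein-coding genes of 3 to 10 kb. The median covered share among those with any cover was 13.7% on day 2 (1807 genes), 14.8% on day 4 (1662 genes) and 24.0% on day 6 (851 genes). Sox4 exceeded 99.6%, 99.8% and 99.3% of these genes. Sox11 exceeded 89.6%, 97.1% and 92.5%, and Sox12 exceeded 91.8% on day 2 and 95.5% on day 4. Cover lay mainly downstream of the start at Sox4 and Sox11. Within 5 kb on each side, Sox4 had 3485 bp downstream and 781 bp upstream on day 2, then 4303 and 134 bp, and at last 5000 and 219 bp. Sox11 had 2636 and 610 bp, 4391 and 809 bp, and 4804 and 0 bp. At Sox12 the amounts were 1527 and 1462 bp, 1971 and 821 bp, and 0 and 1926 bp. The median downstream share over genes with cover was 68.9%, 75.0% and 65.2%, and on day 6 Sox11 had all of its cover downstream and Sox12 none.

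**Figure D3:**
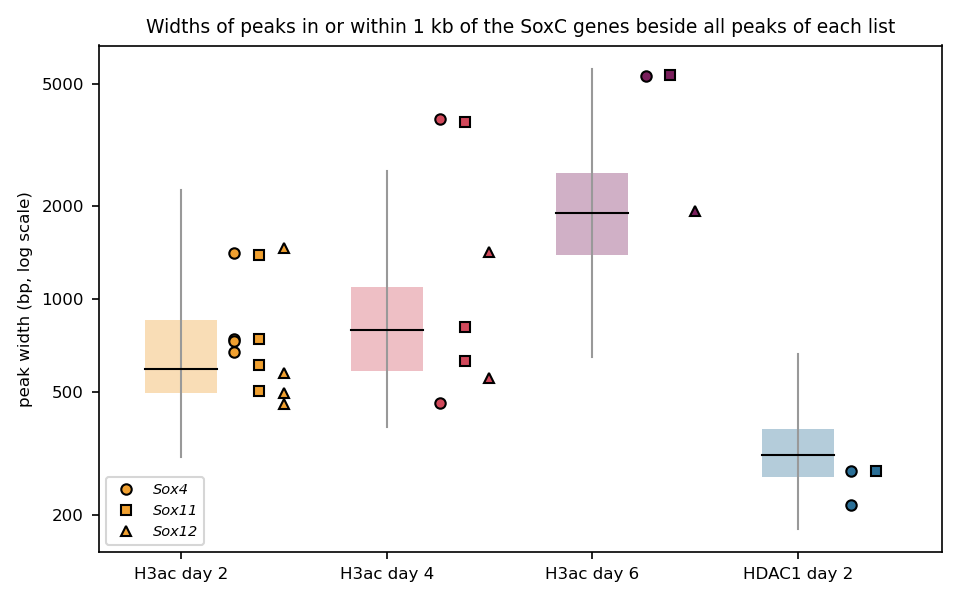
Width in bp (log scale) of each peak in or within 1 kb of a SoxC gene (symbols by gene), beside all peaks of the list (black line, median; box, quartiles; grey line, percentiles 1 to 99). The wide peaks of Sox4 and Sox11 stand at 3843 and 3762 bp on day 4, above the grey line, and at 5279 and 5318 bp on day 6, in its upper end, while the day 6 peak of Sox12 is at 1926 bp beside a median of 1898 bp.

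The starts themselves were unevenly covered. In the RefSeq start window, 250 bases before to 50 after the start, Sox4 had 122, 0 and 269 bp under an H3ac peak on days 2, 4 and 6, and 19 bp under an HDAC1 peak. At Sox11 no list had a peak over the window. Its nearest H3ac peaks ended 213, 162 and 146 bp short of it on days 2, 4 and 6. On days 2 and 4 they stood within 1 kb on both sides, a pattern of 1.60% and 1.30% of all start windows that Sox12 had on day 4 as well. At Sox12 the upstream peak reached 18 bp into the window on day 2 and 130 bp on day 6, and on day 4 no peak touched it. Among all start windows of protein-coding genes, 29.0%, 27.1% and 21.3% were touched by an H3ac peak on days 2, 4 and 6, and 4.75% by an HDAC1 peak. So the CCAAT box of Sox11 printed above lay outside every called peak, between the upstream peak and the gene peaks of days 2 and 4.

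Sox4 and Sox11 each had an upstream site with H3ac peaks on days 2 and 4 and none in the day 6 list. The Sox4 site carried a day 2 peak of score 172.14 from 5889 to 4292 bp before the start and a day 4 peak of score 123.19 from 6022 to 4867 bp before it. It lies within Gm46405, a minus-strand long noncoding RNA gene annotated from 28945177 to 28960673 that also spans Sox4, so peaks there and in Sox4 cannot be assigned to one of these genes. A further long noncoding RNA gene, Gm52067, is annotated on the plus strand from 28960253. The day 2 and day 4 peaks of the upstream site lie within 1 kb of it as well. The Sox11 site had a day 2 peak of score 87.97 from 1455 to 846 bp before the start and a day 4 peak of score 82.30 from 1579 to 771 bp before it. With each list cut to its 5286 best-scoring peaks, only the day 2 peak of the Sox4 site, rank 3283, was left. The Sox4 day 4 peak ranked 5311, and the Sox11 peaks ranked 7736 on day 2 and 7770 on day 4. In lists of equal length the Sox11 site thus had no peak on any day. The lncRNA gene Gm30855 lies 2435 bp from the upstream end of Sox11. The day 2 and day 4 peaks of the Sox11 site lie within 1 kb of Gm30855 as well. No other H3ac peak lay within 50 kb of Sox4 or Sox11. The nearest other protein-coding gene is Cdkal1 at 238 kb from Sox4 and Cmpk2 at 854 kb from Sox11, so no other protein-coding gene shares these windows.

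Sox12 sits among other genes, and this sets how its 50 kb window is read. The ends of Zcchc3, 6820408C15Rik, Nrsn2 and Trib3 fall in the window. Of the 10 day 2 peaks 4 were nearest to Sox12, of the 8 day 4 peaks 3, and the single day 6 peak was nearest to Sox12. Zcchc3, which encodes a zinc-finger protein that binds nucleic acids, had 4 day 2 peaks in the gene or within 1 kb, the best of score 340.36, and 5 day 4 peaks, the best of 115.43, partly shared with 6820408C15Rik. On day 6 it had none. Trib3, a pseudokinase gene of the stress response, had a day 2 peak of score 255.44 and none later, and Nrsn2 had none in any list. In the window of Sox12, with all peaks counted, the upstream stretch was the only one of 10 merged regions with H3ac on every day.

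**Figure D4:**
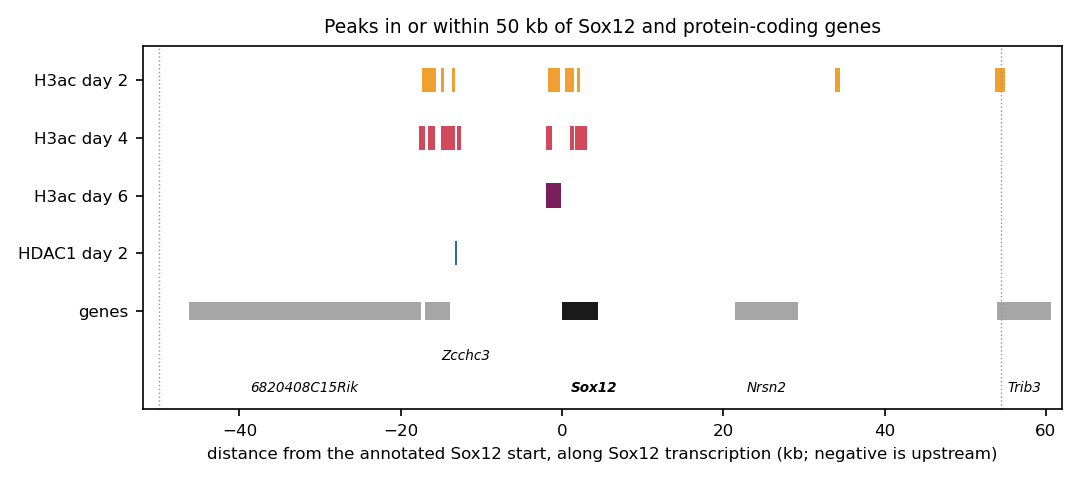
Peaks of the 4 lists (rows) in or within 50 kb of Sox12, by distance from its start in kb along its transcription, with protein-coding genes in grey, Sox12 in black and dotted lines at the edges of the window. The peaks from 17686 to 12502 bp upstream lie at Zcchc3 and the neighbouring end of 6820408C15Rik, and the single day 6 bar is beside the Sox12 start.

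HDAC1 on day 2 was also unevenly spread. Within 1 kb, 2 of the 3 genes had an HDAC1 peak, against 15.8% of protein-coding genes. In both, Sox4 and Sox11, a peak overlapped the gene itself, as in 13.8% of protein-coding genes, and a peak of every list did so, as in 4.58%. Within 50 kb all 3 had one, against 39.4%. Sox4 had 4 HDAC1 peaks, of score 54.93 at 31 to 306 bp after the start, 68.42 at 2209 to 2422 bp, and 51.66 and 67.01 at the upstream site. Sox11 had 1, of score 61.50, at 1386 to 1662 bp after the start. Sox12 had none in the gene or within 10 kb, and the 1 in its window, of score 52.81, lay nearest to Zcchc3. At least 4 HDAC1 peaks within 50 kb were found at 1.43% of protein-coding genes.

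These HDAC1 peaks were 214 to 347 bp wide, beside a median width of 311 bp in their list. Of the 6, 4 scored below the list's median score of 65.37. The 2 above it were both at Sox4. Of the 6, 5 overlapped a day 2 H3ac peak, against 27.7% of all HDAC1 peaks. Of the 3 in or within 1 kb of a SoxC gene, 2 did so, against 38.2% of the HDAC1 peaks placed like that at any protein-coding gene. The exception, at 2209 bp in Sox4, lay 64 bp from the nearest day 2 peak, in the gap between the second and the third, and the wide peaks of days 4 and 6 covered it. Of the 6, 5 overlapped a day 4 peak (25.7% of the list) and 3 a day 6 peak (16.5%). The 3 HDAC1 peaks inside Sox4 and Sox11 overlapped an H3ac peak on both day 4 and day 6. The pair at the upstream Sox4 site and the one near Zcchc3 overlapped none on day 6. With 6 peaks of 1 library these shares are descriptions.

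The other genes of the Sox family varied. On days 2, 4 and 6, 6, 6 and 2 of the 17 other Sox genes had an H3ac peak in the gene or within 1 kb, and 7 had none on any day. The shares over all protein-coding genes, 47.9%, 44.0% and 25.5%, were somewhat higher. Sox2, a factor of stem cells and neural progenitors, and Sox13 had one on each day mapped, as did 21.3% of protein-coding genes. The best Sox2 peak scored above 93.1%, 99.8% and 99.5% of its lists on days 2, 4 and 6. The corresponding figures were 94.4%, 99.4% and 96.3% for Sox4, 80.5%, 98.1% and 94.4% for Sox11, and 91.0%, 84.3% and 8.46% for Sox12. Sox2 had 3, 2 and 1 peaks in the gene or within 1 kb on these days, which covered 2962, 3768 and 4467 bp. Fewer peaks with more cover on each later day were thus not particular to Sox4 and Sox11. The 5 SoxB genes gave 1, 3 and 1 with a peak, of which Sox1 and Sox21 had theirs on day 4 alone. Sox3 and Sox14 had none. The endoderm and endothelial SoxF genes Sox7, Sox17 and Sox18 had none, and of the SoxE genes, active in neural crest and glia, Sox8 and Sox10 had low-scoring day 2 peaks and Sox9 a day 4 peak of score 56.10. Of all 17, HDAC1 peaks were at Sox2 and Sox5 only, beside 15.8% of protein-coding genes.

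**Figure D5:**
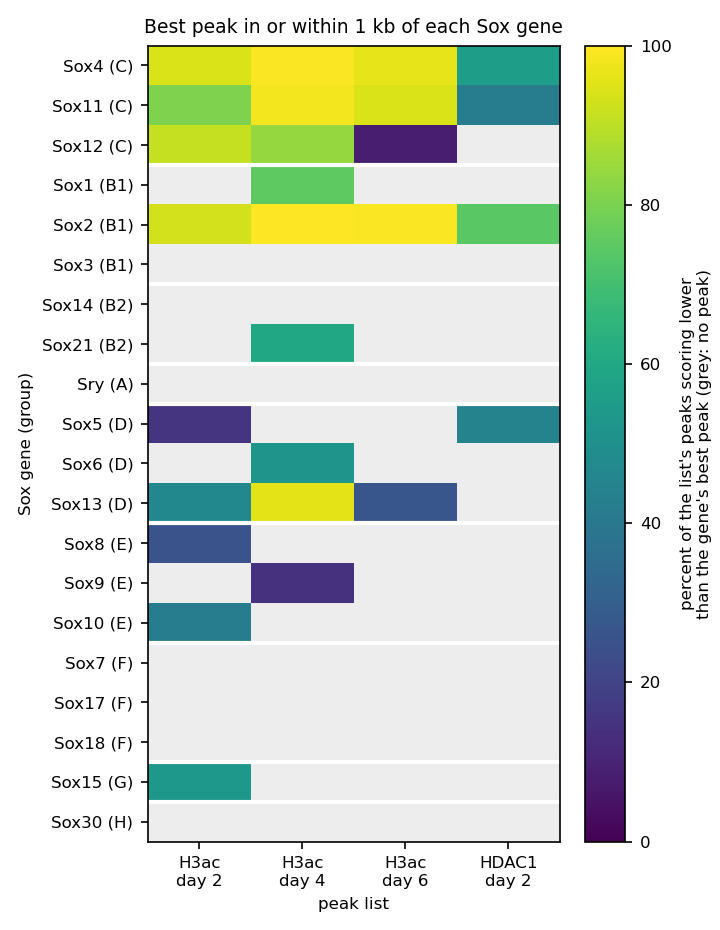
Best peak in or within 1 kb of each of 20 Sox genes (rows, with the group letter) in each list (columns); colour is the percent of the list's peaks that scored lower and grey means no peak. Sox4, Sox11 and Sox2 are bright on days 2, 4 and 6, Sox12 darkens to 8.46% on day 6, and most other Sox genes are grey in most lists.

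Genes described as targets of SoxC factors had H3ac peaks about as often as genes in general. Of 8 target genes, 3, 4 and 2 had an H3ac peak in the gene or within 1 kb on days 2, 4 and 6, near the 47.9%, 44.0% and 25.5% of all protein-coding genes. Tead2, a transcription factor gene of the Hippo pathway, had scores of 202.88, 535.50 and 105.27. Ezh2, the catalytic subunit of Polycomb repressive complex PRC2, had 238.17, 150.45 and 355.61. Plxna1, a semaphorin receptor gene, had 56.89 on day 2 and 138.51 on day 4, and Nrcam, a neuronal adhesion gene, had 103.54 on day 4. The microtubule genes of young neurons Tubb3 and Dcx, and the transcription factor genes Prox1 and Fezf2, had none. Of 4 genes described as partners of SoxC factors, 1, 2 and 1 had a peak, too few genes to be set apart from the same shares. The POU factor gene Pou3f2 had scores of 60.79 on day 2 and 208.57 on day 4, and Pou3f3 had 106.79 on day 4 and 129.99 on day 6. The proneural genes Neurog1 and Neurog2 had none.

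The genes most like each member were found by the mean difference, over the 4 lists, in the percent of peaks that scored lower than the gene's best peak. For Sox4 they were Zic5, Snrnp35, Trim71, Matr3 and Ran, at 1.12 to 2.39 points. Among these, Zic5 and Trim71 also had wide cover, with 7048 and 7019 bp in the gene or within 1 kb on day 6 against 5279 bp at Sox4. For Sox11 they were Chd8, Rpl5, Ube2m, Rbbp6 and Emc3, at 3.80 to 5.34 points, and for Sox12 they were Itprip, Cbx6, Bax, Pop1 and Rida, at 1.16 to 1.54 points. Sox11 was at 7.62 points from Sox4, place 71 in the order of likeness to it, and Sox12 at 40.5 points, place 3691. The measure rests on 4 libraries, and Pop1 and Rida had the same percent in every list. It takes scores and not widths. In covered base pairs, the mean difference from Sox4 was 334 bp for Sox11 and 772.75 to 1894 bp for the 5 genes named for Sox4.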

How the data were processed

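Per the submitters' processing notes, reads were aligned with Bowtie 0.12.8 to mm10. The deposited files are 4 peak lists without a header, 1 per ChIP library, with chromosome, start, end, a peak name that begins with MACS, and the authors' peak score, whose scale is not given in the sources used here. Nothing states the caller's version or threshold, or how the input libraries entered. Scores run from 50 to at most 3100 and served for ranks and filters inside each list. Since peak calling depends on sequencing depth and on settings, a gene without a peak may still be acetylated. Groups and days came from the labels.

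Peaks were assigned to genes of the RefSeq GRCm38.p6 table by overlap of at least 1 bp with the gene, or with the gene extended by 1 or 50 kb (Python 3.11.15, pandas 2.3.3). Strand and start came from the RefSeq start windows, matched for 3 of 3 members. Starts in the lists were made 1-based. Counts of genes with a peak are read against the share of all protein-coding genes under the same rule, and no test was run, because there are no replicates. Genes other than the members were named by list (Sox family, targets, partners, markers, neighbours) or as the 5 most alike, with ties broken by cover. Members and lists were chosen with earlier results of these data known. The counting was tested on simulated data. Sequences of the peaks were not used here.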

Additional observations from a re-analysis of the deposited data

How the results depend on the processing

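Of 65 alternative values for 13 results, 54 stayed within 1.5 times the reported value, and the 3 SoxC genes each kept an H3ac peak within 1 kb on every day with equal numbers of peaks. With the 5286 top-scoring peaks of each list, peaks within 50 kb of the 3 genes numbered 8 on day 2 and 4 on day 4 (19 and 14 with all peaks), and their cover was 9195 and 8787 bp (15422 and 17302). Day 6, at 12523 bp, then had the most cover, where day 4 had it with all peaks. On day 4 there were 9 peaks within 10 kb, 9 when only peaks nearest to a SoxC gene counted, and 7 at or above the median score. On day 6 a window of 100 kb held 5 in place of 3. At or above the median score, 2 HDAC1 peaks were left in place of 6, at 1 gene in place of 2, and 1 in place of 5 overlapped day 2 H3ac. These settings leave fewer peaks or take in more sequence by construction. The share of each gene covered, recomputed in 24 further values chosen after seeing the data, moved by over 1.5 times in 6, at Sox12 on days 2 and 4, at Sox4 on day 2 and in the HDAC1 list. No paired analysis was possible because each target and day has a single library and the result comes from no test. The lists give no depth, so an absent peak cannot be told from too few reads.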

Other observations

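Several H3ac peaks lay outside the 50 kb window but within 100 kb of a SoxC gene. Downstream of Sox4, 62.9 to 64.7 kb beyond the end of the gene, each of the 3 days had a peak. It scored 88.23 on day 2 (640 bp), 73.98 on day 4 (654 bp) and 156.73 on day 6. The day 6 peak was 3020 bp wide, wider than 86.0% of its list, and overlapped both earlier peaks. The day 2 and day 4 peaks did not overlap each other and stood 1193 bp apart. The lncRNA gene 2610307P16Rik ends next to the site, and no HDAC1 peak was called there. Besides the peaks over Sox4 and Sox11 themselves, it was the only day 6 peak within 100 kb of either gene. Upstream of Sox11 a day 2 peak of score 55.34 lay 67.9 kb away with none later, and upstream of Sox4 a day 4 peak of score 50.86, near the lowest score of the list, lay 81.0 kb away. Downstream of Sox12, peaks 61.0 kb away and nearest to Rbck1 scored 246.23 on day 2 and 277.95 on day 4. A day 6 peak of 2058 bp (score 100.93) lay 98.5 kb downstream of Sox12, nearest to Tbc1d20. It overlapped 2 day 2 peaks.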
